A study of Mus musculus with 4 samples.

Results

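The Ly49 receptors, encoded by the Klra genes, were followed in natural killer (NK) cells of the mouse spleen, sorted into cells with and without DNAM-1, the activating receptor that Cd226 encodes. The family was taken as 10 named genes, Klra1, Klra3, Klra4, Klra5, Klra6, Klra7, Klra8, Klra9, Klra10 and Klra17, all 10 of which were listed among the 17723 genes found in any library. The 4 libraries held total RNA of DNAM-1+ and DNAM-1- NK cells from AML spleen (day 17) and of DNAM-1+ and DNAM-1- NK cells from normal spleen (day 0), with 1 library per group and therefore no replicates. All mice were C57BL/6J aged 6 to 8 weeks. AML mice had received GFP+ MLL-AF9 leukaemia cells taken from other leukaemic mice, without irradiation, and day 0 is labelled normal spleen. The labels do not say how many mice stand behind a library, whether the DNAM-1+ and DNAM-1- cells shared mice, or which gates defined the NK cells.

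Ly49 receptors are lectin-like proteins of the mouse NK cell surface that bind class I MHC molecules or viral mimics of them. Each NK cell carries a few of the receptors, in a partly random combination. Inhibitory members hold an immunoreceptor tyrosine-based inhibitory motif (ITIM) in the cytoplasmic tail, which recruits the phosphatase SHP-1. Activating members, here Klra4 (Ly49D) and Klra8 (Ly49H), lack it and signal through the adaptor DAP12. Ly49H recognises the m157 protein of mouse cytomegalovirus, and Ly49D is known to respond to class I molecules of other strains and species.

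The split into activating and inhibitory members can be read in the genes themselves. The first 36 coding bases are given for both activating members and for 4 inhibitory ones, from the GENCODE M21 transcripts (GRCm38, minus strand of chromosome 6), with the 6 codons that hold or align with the ITIM in capitals.
Klra4: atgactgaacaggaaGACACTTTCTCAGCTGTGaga
Klra8: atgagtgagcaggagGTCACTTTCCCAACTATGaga
Klra1: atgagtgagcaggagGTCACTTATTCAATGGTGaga
Klra7: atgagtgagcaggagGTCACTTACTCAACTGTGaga
Klra9: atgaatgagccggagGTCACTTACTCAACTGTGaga
Klra10: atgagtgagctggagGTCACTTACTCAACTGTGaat
Within the capitals, A23T, counted from 1 at the A of the start codon, separated both activating genes from Klra7 and replaced the tyrosine codon of the motif. A search of the first 40 codons found an ITIM in 8 of 8 inhibitory members and in 0 of 2 activating members. The stretches lie at chr6:130065267-130065302 (Klra4, exon 2), chr6:130128125-130128160 (Klra8, exon 2), chr6:130380627-130380662 (Klra1, exon 4), chr6:130231582-130231617 (Klra7, exon 1), chr6:130191266-130191301 (Klra9, exon 2) and chr6:130281887-130281922 (Klra10, exon 1), exon numbers being those of the transcript used.

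The sort and the identity of the cells show in the RNA. Cd226 was at 36.1 and 0.58 FPKM (fragments per kilobase of transcript, scaled to the library's depth) in DNAM-1+ and DNAM-1- cells of AML spleen, and at 38.6 and 0.45 FPKM in those of normal spleen. The 7 NK markers summed to between 5573 and 6827 FPKM in the 4 libraries. B cell RNA was present in every library and higher in DNAM-1- cells. The 8 B cell markers summed to 239.5 FPKM in DNAM-1+ against 1008 FPKM in DNAM-1- cells of AML spleen, and to 217 against 1049 FPKM in normal spleen, with no marker at 0. The 11 monocyte and macrophage markers summed to 415 against 740.4 FPKM in AML spleen and to 381 against 716 FPKM in normal spleen. In DNAM-1+ cells the largest of them were Itgam and Ccr2, at 184 and 113 FPKM in AML spleen and 162 and 122 FPKM in normal spleen. Lyz2 was at 41.9 against 254 FPKM in AML spleen and at 29.3 against 239 FPKM in normal spleen. The sum of the listed T cell markers was higher in DNAM-1+ cells instead, with 58.9 against 21.9 FPKM and 62.7 against 26 FPKM. Cd8b1 of that list was lower in DNAM-1+ cells, at 0.67 against 2.11 FPKM in AML spleen and 2.28 against 5.32 FPKM in normal spleen. Trac, Trbc1 and Trbc2 were not listed in any library. In the limma fit described further on, 8 of 8 B cell markers, 3 of 3 tested plasma cell markers, 8 of 10 tested monocyte and macrophage markers and 4 of 4 tested neutrophil markers fell in DNAM-1+ cells, as did 1 of 4 tested plasmacytoid dendritic cell, 1 of 2 tested dendritic cell and 1 of 1 tested erythroid markers. Ccr2 of the monocyte list, 3 of 4 tested T cell markers and 2 of 7 NK markers rose. Of all tested genes, 8.38% fell and 7.35% rose. Among the markers that fell, Fcgr1, Adgre1, C1qa, Csf3r and Cd209a reached the floor of 5 FPKM only in DNAM-1- cells. Cd3e, which rose, reached it only in DNAM-1+ cells. For these genes the filter itself favours the direction called.

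The Ly49 genes spanned the range from the most abundant RNAs of the libraries to nearly none. In mean FPKM over the 4 libraries the order was Klra8 (635), Klra4 (471), Klra7 (336), Klra9 (291), Klra3 (154), Klra10 (74.8), Klra1 (43.0), Klra6 (25.5), Klra5 (10.9) and Klra17 (1.39). The ranges over libraries of Klra8 and Klra4, of Klra4 and Klra7, and of Klra7 and Klra9 overlapped. Within each library, however, Klra8 was the highest member, while the order of Klra4, Klra7 and Klra9 changed between libraries. From Klra9 downwards, no 2 neighbouring ranges overlapped. In DNAM-1- cells Klra8 ranked 62nd of all genes in AML spleen and 66th in normal spleen, and in DNAM-1+ cells it ranked 132nd and 124th. Of the 10 members, 9 reached the floor of 5 FPKM, and they did so in all 4 libraries. Klra17 did not.

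**Figure D1:**
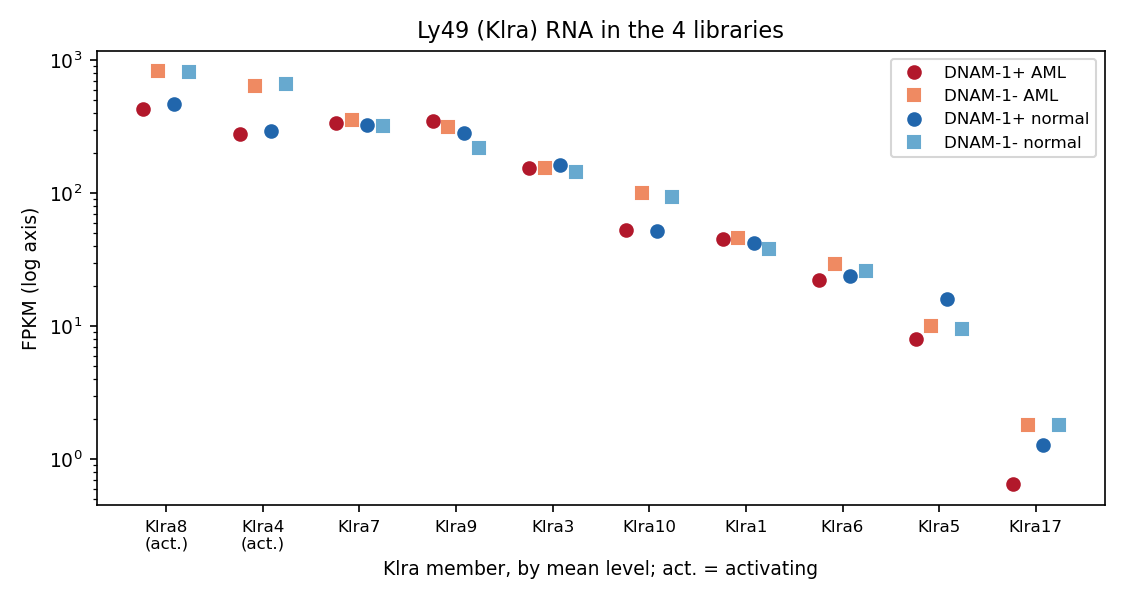
FPKM (log axis) of the 10 Klra members in each of the 4 libraries, 1 point per library, ordered by mean level. In Klra8, Klra4, Klra10, Klra6 and Klra17 both DNAM-1+ points lie below both DNAM-1- points, while in Klra7, Klra3 and Klra1 the 4 points lie close together.

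Both activating genes were lower in DNAM-1+ than in DNAM-1- cells, in both spleens. Klra4, the gene of Ly49D, was at 277 FPKM in DNAM-1+ and 646 FPKM in DNAM-1- cells of AML spleen, and at 295 and 667 FPKM in those of normal spleen. Klra8, the gene of Ly49H, was at 430.4 and 825 FPKM in AML spleen and at 467 and 819 FPKM in normal spleen. For both genes the 2 DNAM-1+ libraries lay below the 2 DNAM-1- libraries without overlap. The same order held for Klra10, Klra6 and Klra17, the last of which stayed below the floor of 5 FPKM. How many of all genes had such an order was not computed. The DNAM-1+ level of Klra4 was 0.429 times the DNAM-1- level in AML spleen and 0.443 times in normal spleen, and that of Klra8 was 0.521 and 0.571 times. In bulk RNA, fewer cells with a receptor and less RNA per cell cannot be told apart.

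One inhibitory gene moved with them. Klra10 (Ly49J) was at 52.6 FPKM in DNAM-1+ and 100.5 FPKM in DNAM-1- cells of AML spleen, and at 51.9 and 94.3 FPKM in those of normal spleen, again without overlap between subsets. Its ITIM codons are intact in the sequence above. With 1 library per group no ratio between 2 libraries has a test or a replicate check. Counting differences of at least 1 in log2(FPKM + 1), 1 of 9 members (Klra4) was lower in DNAM-1+ cells of AML spleen, where 3.19% of all genes at 5 FPKM or more were, and 1 of 9 (again Klra4) in normal spleen, where 3.97% were. No member was 2-fold higher in DNAM-1+ cells, against 0.894% of all genes in AML spleen and 1.28% in normal spleen.

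The only test the design allowed was a limma fit to log2(FPKM + 1) with 2 additive terms, subset and spleen, over the 4 libraries, which leaves 1 residual degree of freedom and borrows its spread from 9074 genes. It tests the mean of the differences in AML and normal spleen, not whether they were equal. On the log2 scale Klra4 fell by 1.20 (SE 0.06, adjusted p = 6.74e-05), Klra8 by 0.87 (SE 0.06, adjusted p = 0.000335) and Klra10 by 0.89 (SE 0.06, adjusted p = 0.0003), each lower in DNAM-1+ cells of 2 of 2 spleens. Thus 3 of 9 tested members fell, beside 8.38% of all genes, and 0 rose, beside 7.35% of all genes. At an unadjusted p under 0.05, 4 members were lower and 1 was higher, and the share of all genes at that threshold was not computed. The median log2 difference was -0.03 over the 9 members and 0.01 over all genes. These calls stood beside the higher B cell and monocyte RNA of the DNAM-1- libraries, whose part in them was not tested. Each library was also scaled to equal levels of 8 NK anchor genes, of which 4 rose in DNAM-1+ cells as deposited. The log2 ratios of Klra4 were then -1.40 in AML and -1.35 in normal spleen. Under this scaling 3 members in AML spleen and 2 in normal spleen were at least 2-fold lower, without a count over all genes. It moved the median of all genes to -0.16 in both subset contrasts. Under it limma called 5 members lower, beside 2541 of all 9150 genes. With no floor on FPKM limma called 0 of all 17723 genes, the 3 members included (adjusted p = 0.117 each).

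Klra7, Klra3 and Klra1, which encode inhibitory receptors, had similar levels in both subsets. Klra7, the gene of Ly49G, was at 339 and 358 FPKM in DNAM-1+ and DNAM-1- cells of AML spleen, and at 326 and 322 FPKM in those of normal spleen. Klra3 (Ly49C) was at 154 and 156 FPKM in AML spleen and at 162 and 145 FPKM in normal spleen. Klra1, the gene of Ly49A, was at 45.2 and 46.3 FPKM in AML spleen and at 42.5 and 38.1 FPKM in normal spleen. In each of these 3 genes the subsets overlapped over the spleens, and limma's difference was between -0.03 and 0.07 on the log2 scale (adjusted p = 0.774 for Klra7, 0.528 for Klra3 and 0.648 for Klra1). These 3 genes did not keep their direction over the spleens. Scaled to equal NK anchor genes, the ratios of all 3 were below 0 in both spleens, and Klra7 then fell by 0.21 (limma adjusted p = 0.0415). That scaling moved the median of all genes to -0.16 in both spleens. Relative to that median, Klra7 lay at -0.10 in AML and 0.0004 in normal spleen, Klra3 at -0.03 and 0.14, and Klra1 at -0.05 and 0.14.

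Klra9 (Ly49I) was the one abundant member with its higher values in DNAM-1+ cells of both spleens. It was at 350.4 FPKM in DNAM-1+ and 313 FPKM in DNAM-1- cells of AML spleen, and at 284 and 218 FPKM in those of normal spleen. The subset difference was 0.27 (SE 0.07, limma adjusted p = 0.0538), higher in DNAM-1+ cells of 2 of 2 spleens but short of the threshold. With the model refitted to protein-coding genes only, which also changes the borrowed spread, its adjusted p was 0.0252, and with a floor of 20 FPKM it was 0.0319. Scaled to equal NK anchor genes, its log2 ratio was -0.022 in AML spleen and 0.20 in normal spleen (limma adjusted p = 0.361), so its direction in AML spleen rests on the scaling. Klra6 (Ly49F) was at 22.4 and 29.2 FPKM in AML spleen and at 24.0 and 26.3 FPKM in normal spleen. Its limma difference was -0.25 (SE 0.08, adjusted p = 0.0949), which NK anchor scaling made -0.42 (adjusted p = 0.00897). Relative to the median of all genes under that scaling, Klra6 lay at -0.38 in AML and -0.14 in normal spleen, and Klra9 at 0.14 and 0.36.

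Klra5, the gene of Ly49E, which is known from fetal NK cells, was low everywhere. It was at 8.10 and 9.99 FPKM in DNAM-1+ and DNAM-1- cells of AML spleen and at 16.1 and 9.51 FPKM in those of normal spleen, so that only the DNAM-1+ library of normal spleen stood apart. At a depth estimated from the FPKM steps of microRNA genes, these values rest on about 84, 106, 178 and 102 reads. The log2 ratio was -0.27 in AML spleen (95% counting interval -0.69 to 0.14) and 0.70 in normal spleen (0.35 to 1.06). Klra17 (Ly49Q), known from plasmacytoid dendritic cells and myeloid cells rather than NK cells, was at 0.65 and 1.80 FPKM in AML spleen and at 1.29 and 1.81 FPKM in normal spleen. It rests on at most about 18 reads in a library, and a difference between the subsets was not detectable at this depth. The 8 plasmacytoid dendritic cell markers summed to 56.7 and 60.6 FPKM in AML spleen and to 61.4 and 65.3 FPKM in normal spleen, mostly from Bst2 and Runx2, while Siglech was at or below 0.4 FPKM in every library.

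**Figure D2:**
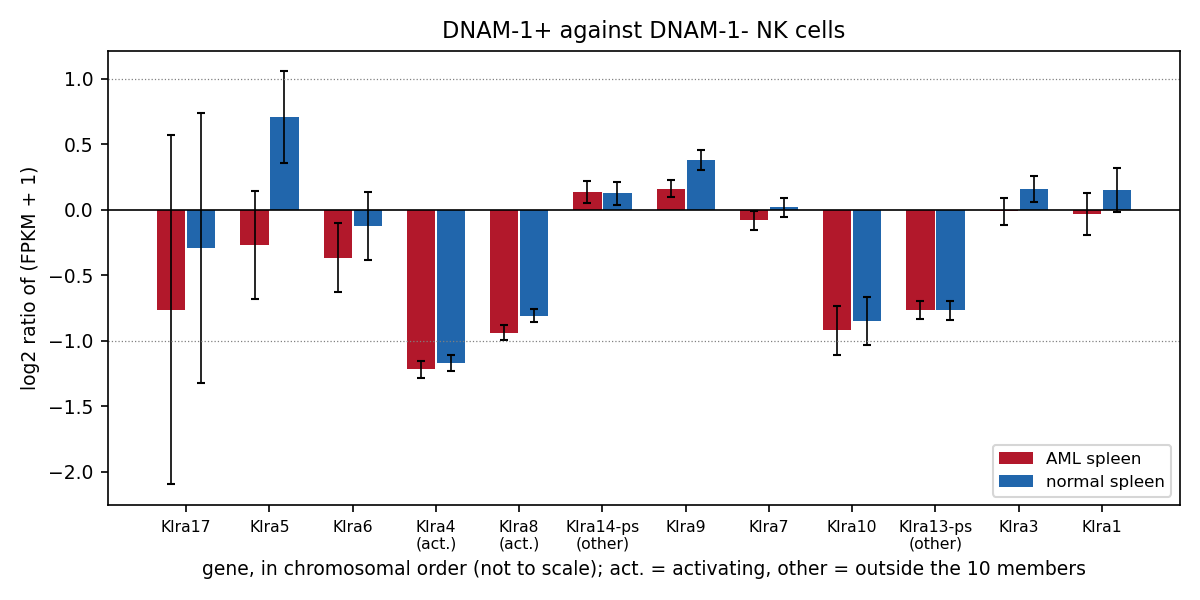
Log2 ratio of (FPKM + 1), DNAM-1+ against DNAM-1- cells, in AML spleen and normal spleen, for the 10 members and 2 transcribed pseudogenes in chromosomal order. Error bars are 95% intervals for counting error only and dotted lines mark 2-fold. Klra4, Klra8, Klra10 and Klra13-ps are lower in both spleens, between -1.22 and -0.77. Klra6 and Klra17 are lower in both too, between -0.76 and -0.13.

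Summed over members, the subsets differed in the balance of activating to inhibitory Ly49 RNA. Activating members summed to 708 FPKM in DNAM-1+ and 1472 FPKM in DNAM-1- cells of AML spleen, and to 762 and 1485 FPKM in those of normal spleen. Inhibitory members summed to 972 and 1015 FPKM in AML spleen and to 907 and 855 FPKM in normal spleen. The activating share of the family's FPKM, which no scaling of whole libraries can change, was thus 42.1% in DNAM-1+ cells against 59.2% in DNAM-1- cells of AML spleen and 45.7% against 63.5% in normal spleen. Activating RNA exceeded inhibitory RNA in both DNAM-1- libraries and was below it in both DNAM-1+ libraries. The whole family summed to 1680 against 2487 FPKM in AML spleen (log2 ratio -0.57) and to 1669 against 2340 FPKM in normal spleen (log2 ratio -0.49). Over the inhibitory members alone these log2 ratios were -0.06 and 0.09, and over the activating ones -1.06 and -0.96. Without Klra8 the activating share was lower in every library but kept the order of the subsets, at 22.2% against 38.9% in AML spleen and 24.6% against 43.8% in normal spleen.

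**Figure D3:**
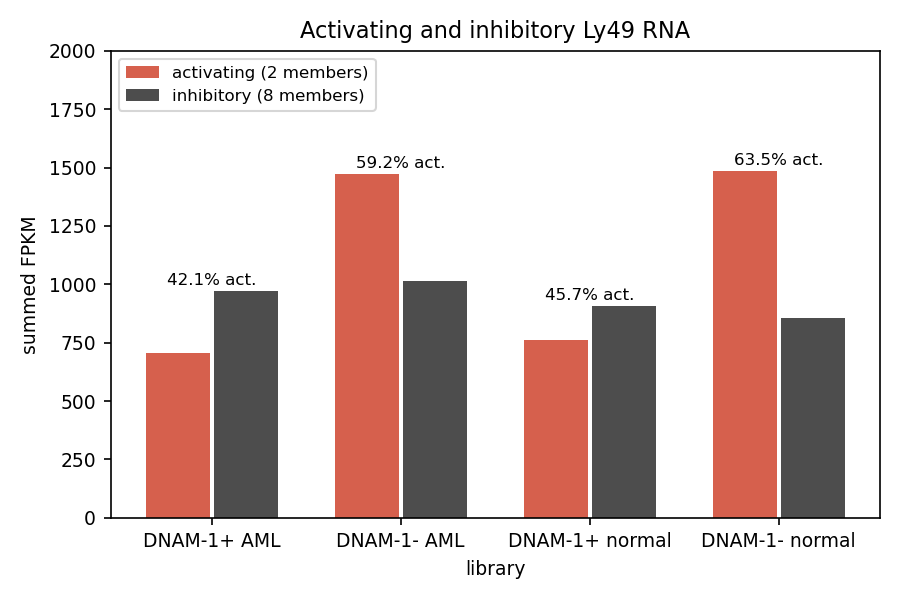
Summed FPKM of the 2 activating and the 8 inhibitory Klra members in each library, with the activating share of the family's FPKM above the bars. The share is 42.1% and 59.2% in DNAM-1+ and DNAM-1- cells of AML spleen, and 45.7% and 63.5% in those of normal spleen.

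Paralogs of this family can share reads, and the submitters' notes do not say how reads with several matches were divided, so the value of a single member is uncertain. Of the 50-base windows of each member's transcript, between 60.2% (Klra10) and 100% (Klra17) occurred in no other Klra gene of GENCODE. Klra4 was nearly free of sharing, with 95.7% of windows its own and 4.26% in common with Klra1. Klra8 had 66.9% of its own, and shared 20.4% with the transcribed pseudogene Klra14-ps, 10.7% with Klra9 and 5.05% with Klra10. Klra10 shared 21.4% of its windows with Klra9, 15.4% with Klra3, 10.6% with the pseudogene Klra11-ps and 7.36% with Klra8. Klra14-ps, Klra9 and Klra3, with which Klra8 and Klra10 shared most, were not called lower. Klra8, which shares windows with Klra10, was called lower and was more abundant, with a mean of 635 against 74.8 FPKM. The part of shared reads in the difference of Klra10 was not tested. Klra14-ps was at 261 and 237 FPKM in DNAM-1+ and DNAM-1- cells of AML spleen and at 237 and 217 FPKM in those of normal spleen.

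By coding sequence the activating genes were not each other's nearest relatives. Klra8 was closer to the inhibitory Klra9 (91.9% identical bases), Klra10 (91.1%) and Klra3 (90.5%) than to the other activating gene Klra4 (77.2%), and Klra4 was closest to Klra1 (88%). Klra9 and Klra10, with subset differences of 0.27 and -0.89, were 96.9% identical. When Klra8 was summed with Klra3, Klra9, Klra10 and Klra14-ps, to which it is linked, directly or through another of them, by at least 5% shared windows, the sum was 1249 against 1632 FPKM in AML spleen and 1201 against 1493 FPKM in normal spleen, with log2 ratios of -0.39 and -0.31. Klra7 shared 15.1% of its windows with Klra13-ps, and their sum was 697 against 969 FPKM in AML spleen and 683 against 931 FPKM in normal spleen, with log2 ratios of -0.47 and -0.45, against -0.08 and 0.02 for Klra7 alone.

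**Figure D4:**
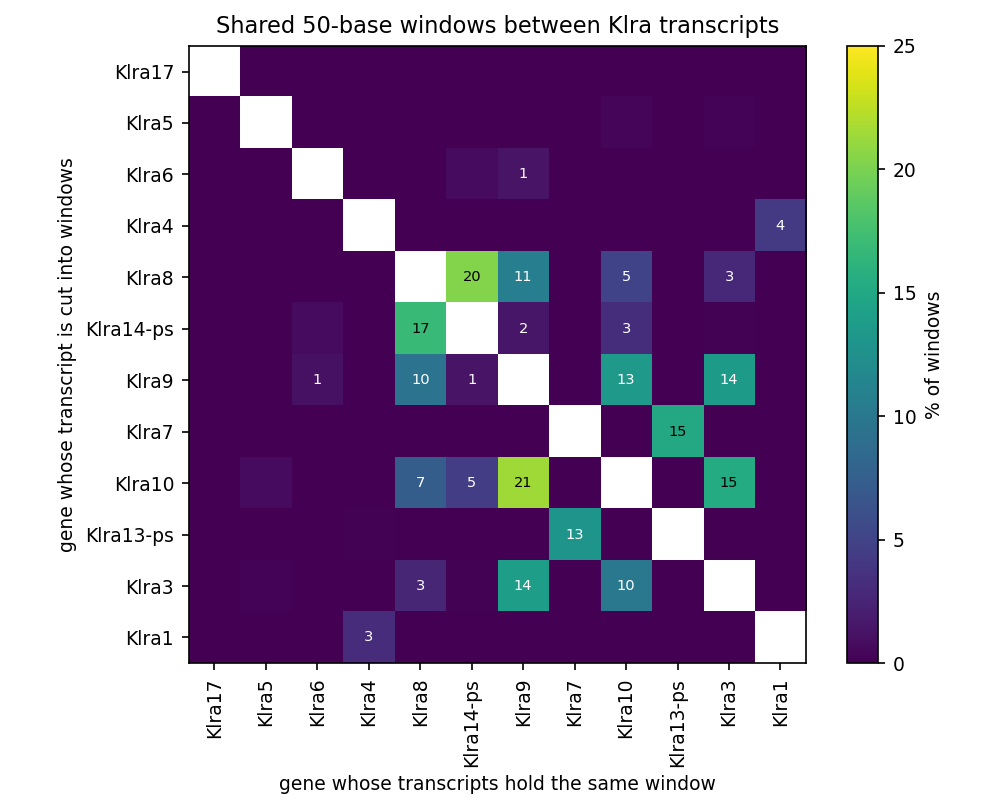
Percentage of the 50-base windows of each Klra transcript (rows) that also occur in transcripts of another Klra gene (columns), genes in chromosomal order. Klra4, Klra5, Klra6, Klra17 and Klra1 share little, and the largest shares are those of Klra10 with Klra9 (21.4%) and of Klra8 with Klra14-ps (20.4%).

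Among other Klra entries, Klra13-ps and Klra23 fell with the activating genes, beside 8.38% of all genes. Klra14-ps, described above, did not, with a limma difference of 0.13 (SE 0.06, adjusted p = 0.193). Of 5 Klra genes outside the 10 that the files list, the transcribed pseudogene Klra13-ps lay in the range of Klra4, at 359 and 611 FPKM in DNAM-1+ and DNAM-1- cells of AML spleen and at 357 and 609 FPKM in those of normal spleen. Its limma difference was -0.77 (SE 0.06, adjusted p = 0.000396, lower in 2 of 2 spleens). It shared 13% of its windows with Klra7 and none above 1% with Klra4, Klra8 or Klra10. Klra23, an entry with no GENCODE transcript here and with no place in the Klra cluster in the RefSeq gene order, was at 23.4 and 48.8 FPKM in AML spleen and at 26.1 and 48.2 FPKM in normal spleen (difference -0.94, SE 0.07, adjusted p = 0.000414), and its sharing with Klra4 and Klra8 was not analysed here, so that its reads cannot be told apart from those of other Klra genes. Klra2 (Ly49B), known from myeloid cells, was at 1.03 and 5.64 FPKM in AML spleen and at 0.91 and 8.06 FPKM in normal spleen. It reached the floor of 5 FPKM only in the DNAM-1- libraries, so these values are given without a test, beside the higher monocyte and macrophage markers of DNAM-1- cells. Klra16 stayed between 0.78 and 1.43 FPKM.

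In the RefSeq gene order Klra4 and Klra8 have only the pseudogene Klra11-ps between them, which the files do not list, and Klra10 lies next to Klra13-ps. The 250 bases before the RefSeq start of Klra4 and of Klra8, the 2 activating genes that fell, were the most alike of all 45 pairs of members, with 84.5% identical bases against a median of 46.3%. They are shown here with the bases that have no identical partner in the alignment in capitals, Klra4 from chr6:130067272-130067521 and Klra8 from chr6:130129899-130130148 (RefSeq, GRCm38.p6, minus strand).
Klra4 upstream: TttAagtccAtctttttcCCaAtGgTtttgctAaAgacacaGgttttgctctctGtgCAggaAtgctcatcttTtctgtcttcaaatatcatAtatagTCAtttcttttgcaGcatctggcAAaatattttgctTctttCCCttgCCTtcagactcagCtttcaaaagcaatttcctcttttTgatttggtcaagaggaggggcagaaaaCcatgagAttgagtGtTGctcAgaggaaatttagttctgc
Klra8 upstream: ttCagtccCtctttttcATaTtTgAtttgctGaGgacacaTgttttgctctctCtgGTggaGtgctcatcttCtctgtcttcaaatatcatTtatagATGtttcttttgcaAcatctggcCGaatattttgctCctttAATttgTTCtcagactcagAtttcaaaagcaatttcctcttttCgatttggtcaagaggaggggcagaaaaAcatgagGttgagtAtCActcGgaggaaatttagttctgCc
The upstream bases of Klra3 and Klra9 were 83.3% identical, with subset differences of 0.07 and 0.27, and those of Klra17 were 79% identical to those of Klra4, while Klra17 was hardly expressed. The upstream bases of Klra10, which also fell, were 44.3% identical to those of Klra4 and 45.0% to those of Klra8. A part of the upstream sequence in the subset differences was not tested.

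Between AML and normal spleen no member passed a threshold. In DNAM-1+ cells, 0 of 9 members were 2-fold higher or lower in AML, beside 0.311% of all genes higher and 0.346% lower. In DNAM-1- cells it was likewise 0 of 9 members, beside 0.193% of all genes higher and 0.397% lower. limma called 0 members higher in AML, beside 0.0661% of all genes, and 0 lower, beside 0.287%. At an unadjusted p under 0.05, 2 members (Klra9 and Klra1) were higher and 0 lower, and the share of all genes was not computed. The median difference was 0.026 over the 9 members and 0.0035 over all genes. The AML contrasts share their libraries with the subset contrasts, and spleen, day and mice cannot be told apart.

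Among the 5 members above 100 FPKM in mean, Klra9 had the largest difference. In DNAM-1+ cells it was at 350.4 FPKM in AML and 284 FPKM in normal spleen, and in DNAM-1- cells at 313 and 218 FPKM. It was 1.24 and 1.44 times its normal level, and both AML libraries lay above the normal library of the same subset. The limma difference was 0.41 (SE 0.07, adjusted p = 0.0992), higher in AML in 2 of 2 subsets. It passed the threshold when the model was refitted to protein-coding genes only (adjusted p = 0.0287) and with a floor of 20 FPKM (adjusted p = 0.0388). Only 67.6% of the windows of Klra9 were its own, and summed with Klra3, Klra8, Klra10 and Klra14-ps its log2 ratios for AML, 0.30 in DNAM-1+ cells and 0.52 in DNAM-1- cells, became 0.056 and 0.13. Klra1 was at 45.2 and 42.5 FPKM in AML and normal DNAM-1+ cells and at 46.3 and 38.1 FPKM in DNAM-1- cells, with a difference of 0.18 (SE 0.07, adjusted p = 0.391).

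The activating genes lay near their normal level. Klra4 in AML was 0.939 times its normal level in DNAM-1+ cells and 0.969 times in DNAM-1- cells, and Klra8 was 0.921 and 1.01 times its normal level. Under NK anchor scaling the ratio of Klra8 in DNAM-1- cells was below 0, at -0.081 on the log2 scale, beside a median of all genes of -0.091. Klra5 stood apart from the other members in DNAM-1+ cells, at 8.10 FPKM in AML against 16.1 FPKM in normal spleen (log2 ratio -0.91, 95% counting interval -1.29 to -0.54), while in DNAM-1- cells it was at 9.99 and 9.51 FPKM. Inhibitory members summed to 972 FPKM in AML and 907 FPKM in normal DNAM-1+ cells, and to 1015 and 855 FPKM in DNAM-1- cells. The activating share was lower in AML in both subsets, by the values given above. The largest FPKM difference among inhibitory members was that of Klra9, at 350.4 against 284 FPKM in DNAM-1+ and 313 against 218 FPKM in DNAM-1- cells. Klra9 was not called in the main fit and shares windows with other members, and the share without it was not computed.

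**Figure D5:**
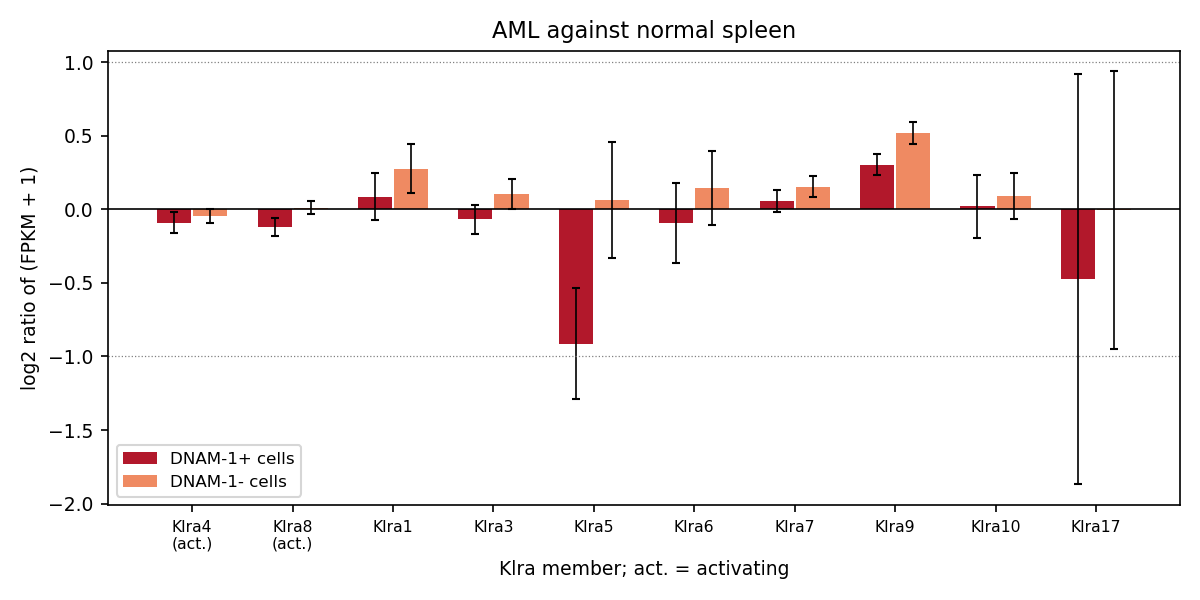
Log2 ratio of (FPKM + 1), AML against normal spleen, of the 10 members, with 1 bar for each subset. Error bars are 95% intervals for counting error only and dotted lines mark 2-fold. Klra9 is higher in both subsets (0.30 and 0.52), Klra5 is lower in DNAM-1+ cells (-0.91) and the other members above 20 FPKM lie between -0.12 and 0.28.

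Among 13 genes of the signalling chain below Ly49 receptors, 2 rose and 4 fell in DNAM-1+ cells (limma over all genes), beside 7.35% of all genes higher and 8.38% lower. Tyrobp, the gene of DAP12, was at 989 and 937 FPKM in DNAM-1+ and DNAM-1- cells of AML spleen and at 1001 and 947 FPKM in those of normal spleen (adjusted p = 0.412), and so did not go with the activating receptors that use its product. Hcst, the gene of the adaptor DAP10, rose (adjusted p = 0.0357; 93.8 and 58.2 FPKM in AML spleen, 64.2 and 54.3 FPKM in normal spleen), and so did the kinase gene Zap70 (adjusted p = 0.0144), at 96.5 and 74.6 FPKM in AML spleen and 95.4 and 76.7 FPKM in normal spleen. Ptpn6, the gene of SHP-1, fell by 0.72 (SE 0.06, adjusted p = 0.000875), at 120.3 and 190 FPKM in AML spleen and 111 and 192 FPKM in normal spleen. Syk and Lyn, which encode kinases, fell by 0.55 (adjusted p = 0.00196) and 0.89 (adjusted p = 0.00103), and Vav2, which encodes an exchange factor, fell by 0.53 (adjusted p = 0.0238). B cells and monocytes are known to express Ptpn6, Syk and Lyn, and their markers were higher in DNAM-1- cells; that part was not tested.

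The class I genes H2-K1 and H2-D1, whose products are Ly49 ligands, and B2m did not pass the test in either direction (0 of 3 at an adjusted p below 0.05, and 0 of 3 for AML). H2-K1 was at 1619 and 1443 FPKM in DNAM-1+ and DNAM-1- cells of AML spleen and at 1459 and 1403 FPKM in those of normal spleen. Of 12 transcription factors of NK cells, 5 rose and 2 fell in DNAM-1+ cells, beside 7.35% of all genes higher and 8.38% lower. Tcf7, whose product takes part in Ly49 acquisition, rose by 0.77 (SE 0.08, adjusted p = 0.00146), at 185 and 98.7 FPKM in AML spleen and 173 and 111 FPKM in normal spleen. Id2, Tbx21, Gata3 and Tox rose too. T cells are known to express Tcf7, Gata3, Tox and Zap70. The T cell markers Cd3d, Cd3e and Cd3g were higher in DNAM-1+ cells (by 1.14, 2.02 and 1.63 on the log2 scale). Cd8b1, the other tested T cell marker, was lower in DNAM-1+ cells of both spleens, with a difference of -0.92 (limma adjusted p = 0.117). Cd4 and Cd8a were not tested. The part of T cells in these differences was not tested. Nfil3 and Zeb2 fell, Nfil3 with 25.6 and 32.1 FPKM in AML spleen and 22.2 and 31.3 FPKM in normal spleen.

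The profile of Klra4 over the 4 libraries was compared with those of 4273 protein-coding genes outside the family that reached 20 FPKM in at least 1 library, each as log2(FPKM + 1) minus its own mean. The smallest distances were those of Susd3 (0.0562), Swap70 (0.156), Fgr (0.169), Aldh2 (0.171) and Unc93b1 (0.173). The first 4 of these were below 20 FPKM in both DNAM-1+ libraries and entered only through the DNAM-1- libraries, a filter that itself favours profiles like that of Klra4. Susd3 was at 8.19 and 20.1 FPKM in DNAM-1+ and DNAM-1- cells of AML spleen and at 8.66 and 21.8 FPKM in those of normal spleen. The nearest Klra genes were at 0.259 for Klra23, 0.326 for Klra8 and 0.334 for Klra10. The Klra genes are far fewer than the 4273 genes outside, so the smallest distances inside and outside the family cannot be set against each other. The likeness rests on 4 libraries, which all these genes share.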

How the data were processed

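The deposited values are FPKM per gene, per the file headers, under NCBI Gene numbers and with 2 decimals. Each file lists only genes above 0, and a gene absent from a file was taken as 0. Bowtie2 2.2.5 and RSEM are named in the submitters' processing notes, without a role; the genome build and annotation are not given in the sources used here. Of 17723 gene numbers, 17668 matched a symbol in the RefSeq table of GRCm38.p6. Depth, estimated from the FPKM steps of microRNA genes, was 8300000 to 8900000 fragments; 90.7% to 95.4% of their values lay within 0.1 of a whole number of reads. Intervals and read numbers derived from it cover counting error only.

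Ratios are log2 after adding 1 FPKM, which understates differences of low genes, with a floor of 5 FPKM in the higher library and calls at 1 or more. limma 3.58.1 (R 4.3.3) was fitted with its mean-variance trend, two-sided, Benjamini-Hochberg adjusted over all 9074 genes and called below 0.05. The fit was also run on simulated libraries. These held no spleen effect and no interaction, so that run cannot show how the p-values behave where such effects are present. The 1 residual degree of freedom of the fit is the inequality of the subset difference between the 2 spleens. The limma p-values therefore rest on that inequality, moderated over genes, and not on a spread between replicates. It may be technical or may include a real difference between the spleens. Sequence identities came from Biopython 1.88 global alignments. The members and gene lists were chosen with earlier results of these data known. Named genes are all members, fixed lists of partners and the 5 genes nearest to Klra4; Klra genes outside the 10 were listed by symbol. The alternatives were other pseudocounts, floors and scalings, protein-coding genes only, no trend, and leaving out the highest member. Summing genes that share windows was added after seeing the data.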

Additional observations from a re-analysis of the deposited data

Results flagged for a closer look

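For 3 members the ratio of one contrast had opposite signs in the 2 spleens or in the 2 subsets, and both ratios differed from each other by more than their counting error. The difference itself was not tested, since each group holds 1 library. Klra5 had a log2 ratio of -0.27 for DNAM-1+ against DNAM-1- cells in AML spleen and of 0.70 in normal spleen. Seen the other way, its ratio for AML against normal was -0.91 in DNAM-1+ cells but 0.064 in DNAM-1- cells. Klra3 had subset ratios of -0.013 in AML and 0.16 in normal spleen, and AML ratios of -0.069 in DNAM-1+ cells but 0.10 in DNAM-1- cells. Klra8 had AML ratios of -0.12 in DNAM-1+ cells but 0.012 in DNAM-1- cells. With the libraries scaled to equal NK anchor genes, both ratios of Klra8 were below 0, and so were both subset ratios of Klra3. That scaling put the median of all genes below 0 in these contrasts too.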

How the results depend on the processing

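No paired analysis was possible because the labels give no replicate or mouse numbers that tie libraries together; the limma fit has spleen as a term, so it compares the subsets within spleens. Leaving out any library would leave the limma fit with no residual degrees of freedom, so that alternative was not run. Directions of Klra4, Klra8 and Klra10 in the subset contrasts were the same under every alternative run.

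Scaled to equal NK anchor genes, DNAM-1+ cells of AML spleen had 3 members lower by 2-fold or more and those of normal spleen had 2, against 1 each as deposited, and limma called 5 lower, against 3. That scaling moved the median of all genes to -0.16 in both subset contrasts, relative to which Klra4 lay at -1.24 in AML and -1.19 in normal spleen, and it turned the split of all limma subset calls to 332 higher and 2541 lower, against 667 and 760. Under it the summed family had log2 ratios of -0.75 in AML and -0.66 in normal spleen for the subsets, and of -0.091 in DNAM-1+ cells and -0.0055 in DNAM-1- cells for AML, which reversed the sign of these small values. Median ratio scaling gave -0.53 for the subsets of normal spleen.

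With no floor limma called 0 members lower; it then called 0 of all 17723 genes, and Klra4, Klra8 and Klra10 had an adjusted p of 0.117. With a floor of 20 FPKM, and with protein-coding genes only, 1 member (Klra9) was called higher for the subset and 1 (Klra9) for AML; in both the model was refitted to fewer genes, which changes the borrowed spread too. Without the trend limma called 321 genes higher and 561 lower for the subset, and 1 higher and 4 lower for AML against 6 and 26; with a floor of 20 FPKM it called 18 and 51 for AML, with NK anchor scaling 13 and 145, and over protein-coding genes 26 and 81.

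Without Klra8, the highest member, the summed family had ratios of -0.41 in AML and -0.34 in normal spleen for the subsets, and of 0.056 in DNAM-1+ cells and 0.13 in DNAM-1- cells for AML. The activating shares were then 22.2%, 38.9%, 24.6% and 43.8% in DNAM-1+ AML, DNAM-1- AML, DNAM-1+ normal and DNAM-1- normal cells. Except where a construction is named, the cause of these changes was not tested.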
